A study of Mus musculus with 4 samples.

Results

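The genes described here are 49 that code for subunits of chromatin remodelers other than the ISWI enzymes, read from a table of 24594 genes in mouse embryonic stem cells (ESCs). They were taken by name: 22 genes of the SWI/SNF (BAF) complexes, 8 CHD-family ATPases, 10 further subunits of the NuRD complex, 3 ATPases of the INO80 family, 4 other SNF2-type ATPases and a pair of small histone-fold proteins, Chrac1 and Pole3. The name of the group holds less strictly for some of them, because CHRAC1 and POLE3 are known as subunits of CHRAC, which is an ISWI complex, and RBBP4 and RBBP7 are shared between NuRD, the ISWI complex NURF and other chromatin complexes. The rule names the genes and uses no measured value, although earlier results of these data were known when it was written. All 49 had enough reads to be tested, as did 13840 genes of the whole table.

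Poly(A) RNA was sequenced from 2 wild-type (WT) libraries and 2 Snf2l knockout libraries of one ESC line, 129S6/SvEvTac, grown with serum and LIF on gelatin and given no treatment. Snf2l is the gene Smarca1, whose protein SNF2L is an ISWI ATPase, and its paralog Smarca5 codes for the other one, SNF2H. The knockout was made with Cas9 and is represented by 1 mutant line, so that genotype and clone cannot be told apart. The methods of the study describe its RNA-seq replicates as independent, and all replicates of the knockout here are of that line. The libraries held between 13771642 and 15608803 counts.

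Remodelers are motors that use ATP to slide, eject or exchange nucleosomes. SWI/SNF complexes move and evict nucleosomes and open regulatory DNA, NuRD joins a CHD motor to histone deacetylases, and INO80-family enzymes exchange or space nucleosomes that carry the variant histone H2A.Z. ESCs are known for a SWI/SNF variant called esBAF, built on BRG1 (Smarca4) with BAF155 (Smarcc1) in place of BRM (Smarca2) and BAF170 (Smarcc2). Loss of an ISWI motor raises the question of whether genes of the other families change in expression.

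Promoters of the members that differed between genotypes are shown first, because 3 of these genes lie on one chromosome and fell together. RefSeq (GRCm38.p6) gave a promoter for 38 of the 49 members. Those without an entry were Arid2, Smarce1, Bcl7a, Ss18, Chd1, Chd2, Chd3, Chd7, Mta3, Hdac1 and Chrac1. The sequences below run 5′ to 3′ on the strand of the gene up to its transcription start, cut short where an exon or the RefSeq extent of the gene begins. The start of Smarcd3 in this table is an internal one, and the window of Chd9 lies wholly in an exon and is not shown. Capitals mark GC boxes (GGGCGG) and CCAAT boxes (CCAAT), each on either strand.
Smarcd3, chr5:24602013-24602252, minus strand: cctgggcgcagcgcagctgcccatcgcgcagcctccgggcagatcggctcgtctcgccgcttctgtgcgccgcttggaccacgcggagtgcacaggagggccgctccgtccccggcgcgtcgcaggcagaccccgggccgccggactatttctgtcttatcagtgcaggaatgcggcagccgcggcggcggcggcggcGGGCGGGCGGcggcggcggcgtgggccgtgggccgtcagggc
Brd7, chr8:88362253-88362422, minus strand: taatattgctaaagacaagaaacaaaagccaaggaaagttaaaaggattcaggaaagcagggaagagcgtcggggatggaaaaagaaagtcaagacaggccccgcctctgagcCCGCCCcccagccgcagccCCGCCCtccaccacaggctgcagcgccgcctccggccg
Gatad2a, chr8:69996403-69996634, minus strand: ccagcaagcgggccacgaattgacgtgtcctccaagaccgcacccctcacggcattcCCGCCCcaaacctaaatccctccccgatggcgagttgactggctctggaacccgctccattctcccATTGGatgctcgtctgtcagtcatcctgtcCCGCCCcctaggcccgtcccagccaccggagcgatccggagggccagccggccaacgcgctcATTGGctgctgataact
Each of the 3 sequences holds 2 GC boxes, which overlap each other in Smarcd3, and Gatad2a also holds 2 CCAAT boxes. The gene that rose and the 2 shown that fell thus had GC boxes alike in these windows.

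Over the full windows of 250 bases, a GC box was found in 32 of 38 member promoters (84.2%), in 59.7% of 10962 promoters of tested genes and in 33.0% of all 27025 promoters. The members' promoters were also rich in G and C, with a median GC content of 65.8% against 60.0% for tested genes. A ratio of observed to expected CpG over 0.6 was found in 92.1% of them, against 67.0% for tested genes, which is the composition of CpG island promoters. A CCAAT box was present in 28.9% of the member promoters and in 37.0% of those of tested genes, an ETS-type site (CCGGAA) in 23.7% and 22.1%, an E-box (CACGTG) in 10.5% and 8.73%, and a TATA box (TATAAA) in 5.26% and 6.24%. All motifs were searched on both strands, and a match describes letters, not binding.

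Levels in WT cells were compared as CPM (counts scaled to the size of the library) per kb of the gene length in the table. The 49 genes spanned from 0.216 ± 0.0106 CPM per kb (SD, n = 2) for Smarca2 to 140 ± 2.74 for Rbbp7, with a median of 19.8, against 5.75 for all genes tested. Of the members, 41 lay above that median, 10 were over 50 CPM per kb, 25 were between 10 and 50, and 14 were under 10. Below the histone-binding protein gene Rbbp7 stood Hells (116 ± 7.58), the gene of the SNF2-type ATPase LSH that serves DNA methylation, and Chd4 (97.6 ± 10.4), the main motor of NuRD. Actl6a (95.7 ± 5.93), which codes for the actin-like subunit BAF53a, followed, then Mbd3 (87.2 ± 3.02), Rbbp4 (83.3 ± 3.01), Smarcd1 (64.6 ± 2.56), Smarca4 (59.2 ± 3.49), Smarcc1 (58.8 ± 3.65) and Gatad2a (55.2 ± 3.17). In the whole order 30 genes overlapped the next one down in their WT libraries, among them Chd4 with Actl6a, Mbd3 with Rbbp4, and Smarca4 with Smarcc1 and Smarcc1 with Gatad2a, so neighbours such as these could not be ranked.

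**Figure D1:**
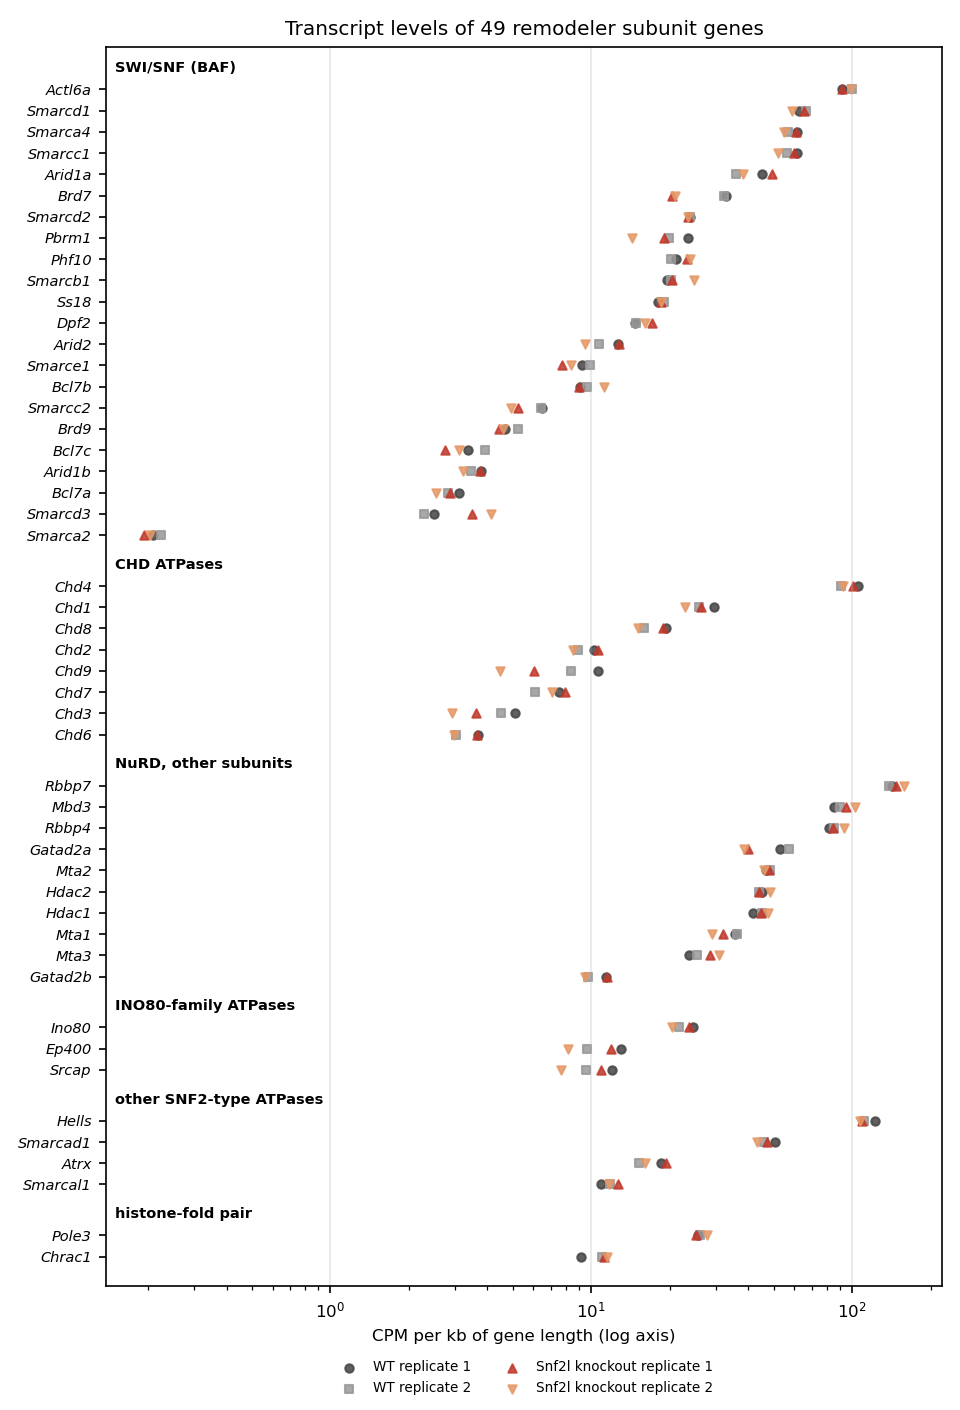
Levels of the 49 remodeler subunit genes in CPM per kb of gene length (log axis), with a point for each of the 2 WT and 2 Snf2l knockout libraries and genes grouped by complex and sorted by their WT level. In WT, with the table's lengths, Rbbp7 and Hells stand highest, Chd4 and Actl6a overlap below them, and Smarca2 is lowest at 0.216 CPM per kb. The libraries of both genotypes overlie each other for most genes.

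The NuRD genes had the highest median level of the complexes, 46.0 CPM per kb, with Gatad2b, one of the p66 genes, as the lowest member at 10.5 ± 1.15. Its deacetylase genes Hdac1 (43.5 ± 2.37) and Hdac2 (44.6 ± 0.745) overlapped. The MTA scaffold genes stood at 47.5 ± 1.17 for Mta2, 35.8 ± 0.415 for Mta1 and 24.5 ± 1.19 for Mta3. The CHD ATPases had a median of 9.53, with Chd4 far above Chd1 (27.7 ± 2.62), a motor of transcribed chromatin, Chd8 (17.6 ± 2.35), Chd2 (9.57 ± 0.948), Chd9 (9.49 ± 1.61), Chd7 (6.79 ± 1.02), Chd3 (4.81 ± 0.432) and Chd6 (3.35 ± 0.468). Among INO80-family ATPases, Ino80 (23.0 ± 1.98) was above Ep400 (11.3 ± 2.43) and Srcap (10.8 ± 1.73), which overlapped. Smarcad1 (48.4 ± 3.34), Atrx (16.9 ± 2.38) and Smarcal1 (11.3 ± 0.654) were the other SNF2-type ATPases, and the histone-fold genes were at 25.9 ± 0.346 for Pole3 and 10.1 ± 1.30 for Chrac1.

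The SWI/SNF genes had a median of 16.6 CPM per kb and ran from 0.216 to 95.7. Below Smarcc1 came Arid1a (40.4 ± 6.5), Brd7 (32.6 ± 0.391), Smarcd2 (23.9 ± 0.0819) and Pbrm1 (21.7 ± 2.56). Phf10 (20.7 ± 0.706), Smarcb1 (19.8 ± 0.526), which codes for the core subunit SNF5, Ss18 (18.5 ± 0.624), Dpf2 (14.7 ± 0.0817) and Arid2 (11.7 ± 1.41), the ARID subunit gene of PBAF, filled the middle range. Under 10 CPM per kb stood Smarce1 (9.55 ± 0.486), Bcl7b (9.34 ± 0.376), Smarcc2 (6.44 ± 0.0111), Brd9 (4.96 ± 0.393), which defines the non-canonical ncBAF, Bcl7c (3.64 ± 0.378), Arid1b (3.61 ± 0.225), Bcl7a (2.96 ± 0.202), Smarcd3 (2.39 ± 0.159) and Smarca2.

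The pairs of related subunit genes given here were expressed unequally. Other pairs were closer, with mean WT ratios per kb of 0.975 for Hdac1 to Hdac2 and 1.33 for Mta2 to Mta1. In the WT libraries Smarca4 was 295 and 253 times Smarca2 per kb, and in the knockout libraries it was 314 and 269 times, so that the genotypes overlapped. Smarcc1 was 9.53 and 8.75 times Smarcc2 in WT against 11.4 and 10.6 times in the knockout. At the transcript level both ratios go the way of esBAF, in which BRG1 and BAF155 predominate. Protein and the composition of complexes were not measured, and Smarca2 had only 29 and 35 counts in WT. Arid1a, the DNA-binding subunit of canonical BAF, was 11.9 and 10.4 times its paralog Arid1b in WT against 13.2 and 11.8 times in the knockout. Among the BAF60 genes, Smarcd1 was 25.1 and 29.1 times Smarcd3 in WT but 18.8 and 14.3 times in the knockout. Chd4 was 20.5 and 20.02 times Chd3 in WT against 27.8 and 31.7 times in the knockout. Gatad2a was 4.67 and 5.92 times its paralog Gatad2b in WT against 3.45 and 4.08 times in the knockout, and Brd7 was 7.02 and 6.17 times Brd9 in WT against 4.63 and 4.58 times in the knockout. Of the ratios of unequal pairs in this paragraph, those of Smarca4 to Smarca2 and Arid1a to Arid1b overlapped between genotypes, and the others did not. Among single genes, 25.2% lay wholly higher and 25.3% wholly lower in the knockout, and no such share was taken over ratios. Smarcd3, Chd3, Gatad2a and Brd7 are also genes called below, so their ratios add no separate result. Gatad2a and Brd7 lie on chromosome 8, which is described below.

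Lengths bear on such ratios, since the table's length is close to the union of all exons: it equalled that union in GENCODE for 37 of the 49 genes, and it was over 2 times the longest coding transcript for 8. With the longest coding transcript as the length, a choice made after seeing the data, Smarcb1 stood at 94.7 instead of 19.8 CPM per kb. Rbbp4 then stood above Hells, Actl6a and Chd4 in WT, at 165 against 143, 140 and 117 CPM per kb. The WT ratio of Smarca4 to Smarca2 was 162 instead of 274, and that of Smarcd1 to Smarcd3 was 12.0 instead of 27.1. That of Brd7 to Brd9 was 3.33 instead of 6.59, and the order of Mta1 and Mta3 turned, with a ratio of 0.808 instead of 1.46.

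To place these motors beside the ISWI enzymes, the same scale was used for Smarca1 and Smarca5. Smarca1 held 620 and 626 counts in WT against 37 and 31 in the knockout, so that the libraries matched their labels, with a log2 fold change of -4.30 (SE 0.159). The motor genes Smarca5 and Smarca4 were nearly level in WT, with ratios per kb of 1.04 in both WT libraries, while Smarca5 was 0.648 and 0.724 of Smarca4 in the knockout libraries. Chd4 was 1.64 and 1.53 times Smarca5 in WT against 2.55 and 2.33 times in the knockout. The 17 ATPase genes among the members summed to 504 and 445 CPM per kb in WT and to 473 and 426 in the knockout, a ratio of 0.948 with overlapping genotypes. The ISWI ATPase genes summed to 71.4 and 65.6 in WT and to 39.9 and 40.0 in the knockout, a ratio of 0.583 with no overlap. Smarca1 was the smaller part of that sum in WT, where Smarca4 was 8.28 and 8.50 times Smarca1 per kb. Smarca5, which lies on chromosome 8, had a log2 fold change of -0.63 (adjusted p = 0.000292 in edgeR). With the shift of that chromosome described below removed, Smarca5 was at -0.12. In these bulk samples fewer cells that express a gene and less RNA per cell cannot be told apart.

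Next, each gene was compared between genotypes. Of the 49 members, 5 had an adjusted p-value under 0.05 in edgeR (10.2%), and among all 13840 genes tested the share was 9.21%. Only Smarcd3 rose (1 of 49; 4.0% of all genes rose), and Brd7, Chd3, Chd9 and Gatad2a fell (4 of 49; 5.21% of all genes fell). None of the 49 was a differentially expressed gene (DEG) at the threshold of the study, an adjusted p-value under 0.01 and a change over 2-fold, which 0.990% of all genes passed; 11 had an unadjusted p-value under 0.05, against 22.2% of all genes, and DESeq2 also called 0 DEGs among them. DESeq2 passed the same 5 genes at an adjusted p-value under 0.05 (6.02% of the genes it tested). The number of calls rose to 11 without Snf2l knockout replicate 1, where Pbrm1, Smarcb1, Smarcc2, Mta3, Srcap and Ep400 also passed (13.7% of all genes), and Chd9 was then a DEG, as it was without WT replicate 2. Pbrm1 was added without WT replicate 2, Arid1a was added without Snf2l knockout replicate 2, and Chd3 was lost without WT replicate 1. The number of calls rose to 9 (13.9% of all genes) when a trend with gene length was removed from each library, an alternative added after seeing the data. It fell to 2 when the shift of chromosome 8 described below was removed (4.79% of all genes).

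The other 44 members did not pass the test. Over all 49, SEs of the log2 fold change ran from 0.0818 to 0.257, with a median of 0.0994, against 0.123 over all genes tested. The 95% interval of the change stayed under a 1.5-fold rise (0.585 on the log2 scale) in 48 of 49 members, the exception being Smarcd3. It did so in 11081 of the 13840 genes tested. Intervals lay wholly within 1.5-fold in either direction in 42 members and in 8952 of the 13840 genes. The widest interval, from -0.67 to 0.43, was that of Smarca2, which had 29 and 35 counts in WT against 31 and 32 in the knockout. The median log2 fold change over the members was -0.022, against 0.0002 over all genes, and with upper-quartile scaling it was 0.0087, against 0.031 over all genes. The knockout libraries both lay above both WT libraries in 8 members (25.2% of all genes did so) and both below in 13 (25.3% of all genes), while 28 overlapped.

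**Figure D2:**
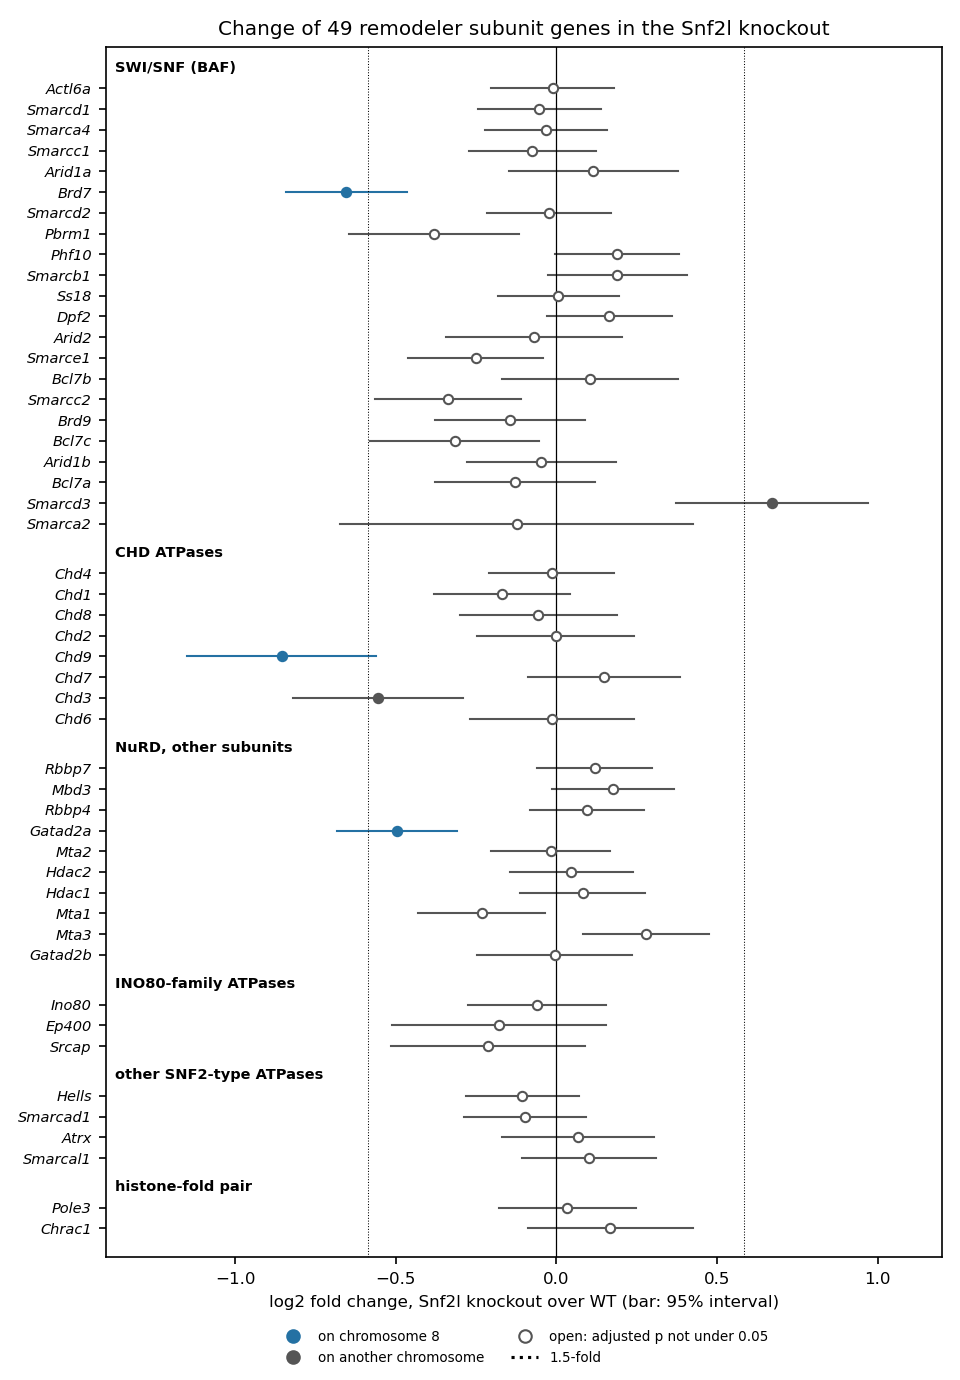
Log2 fold change of each of the 49 genes, Snf2l knockout over WT, with its 95% interval as a bar, grouped by complex; filled points passed an adjusted p-value of 0.05 and blue points lie on chromosome 8. Only Smarcd3, at 0.67, has an interval that reaches past the dotted line of a 1.5-fold rise, and Brd7, Chd3, Chd9 and Gatad2a are the filled points to the left of 0.

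Among the 22 SWI/SNF genes 1 rose and 1 fell, with a median log2 fold change of -0.050. Of all genes tested 9.21% passed in either direction, and the gene that fell here, Brd7, lies on chromosome 8. The motor Smarca4 and the other motors described in this paragraph and the next were picked as the most abundant of their families. Smarca4 was at 399 and 367 CPM in WT against 394 and 355 CPM in the knockout, and the interval of its change ran from -0.22 to 0.16. The members nearest to the threshold were Smarcc2 and Pbrm1. Smarcc2, the BAF170 gene, was at 35.8 and 35.7 CPM in WT against 29.1 and 27.4 CPM in the knockout, a log2 fold change of -0.34 (SE 0.106, adjusted p = 0.0621 in edgeR). Pbrm1, the polybromo subunit that defines PBAF, was at 208 and 176 CPM in WT against 169 and 126 CPM in the knockout, a log2 fold change of -0.38 (SE 0.124, adjusted p = 0.0718 in edgeR). Both genes were lower in each knockout library than in each WT library but did not pass the test. Without Snf2l knockout replicate 1 both passed, at -0.60 for Pbrm1 and -0.38 for Smarcc2. The value of Pbrm1 depended on single libraries, being -0.50 without WT replicate 2, where it also passed, -0.26 without WT replicate 1 and -0.19 without Snf2l knockout replicate 2. Bcl7c stood at 24.4 and 28.3 CPM in WT against 19.9 and 22.4 CPM in the knockout, a log2 fold change of -0.32 with an adjusted p of 0.139 in edgeR. On the positive side, the core subunit gene Smarcb1 had a log2 fold change of 0.19 (adjusted p = 0.298 in edgeR) and the PBAF subunit gene Phf10 one of 0.19 (adjusted p = 0.239 in edgeR). Their libraries did not overlap between genotypes either, with 154 and 160 CPM in WT against 162 and 197 CPM in the knockout for Smarcb1, and 104 and 99.0 against 114 and 117 CPM for Phf10.

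In the CHD family 0 of 8 genes rose and 2 fell, Chd3 and Chd9, with a median of -0.036. Of all genes tested 5.21% fell, and of those on chromosome 8, where Chd9 lies, 60.1% fell. With the shift of that chromosome described below removed, Chd9 did not pass (adjusted p = 0.192 in edgeR). Chd4 was at 841 and 723 CPM in WT against 808 and 741 CPM in the knockout, with an interval from -0.21 to 0.18. Of the 10 further NuRD genes 1 fell, Gatad2a, which also lies on chromosome 8, and the median was 0.064. The NuRD gene with the largest positive change was Mta3, at 126 and 135 CPM in WT against 152 and 164 CPM in the knockout, a log2 fold change of 0.28 (SE 0.0913) that did not pass the test (adjusted p = 0.0748 in edgeR). Summed per kb, the 10 NuRD genes changed by a ratio of 1.03 and the 22 SWI/SNF genes by 0.968, with overlapping genotypes in both cases.

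No call was made by edgeR or DESeq2 among the 3 INO80-family ATPases, the 4 other SNF2-type ATPases or the pair of histone-fold genes, and none of these had an unadjusted p-value under 0.05, although Srcap and Ep400 passed without Snf2l knockout replicate 1. Median log2 fold changes were -0.18 for the INO80 family, -0.016 for the other SNF2-type ATPases and 0.10 for Chrac1 and Pole3. Hells, the most abundant SNF2-type gene here, was at 877 and 800 CPM in WT against 784 and 775 CPM in the knockout, and the interval of its change ran from -0.28 to 0.07. Over the 17 ATPase genes of all families, 0 rose, 2 fell, and 17 had an upper bound of the interval under a 1.5-fold rise. Of all 13840 genes tested, 5.21% fell and 11081 had such an upper bound.

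The member that rose was Smarcd3 (Entrez gene 66993, chromosome 5, 24592622 to 24624456), which codes for BAF60c, a BAF60 subunit best known from heart and muscle. Its counts were 162 and 166 in WT against 260 and 301 in the knockout. In CPM these were 11.9 and 10.8 in WT against 16.6 and 19.6 in the knockout, and the genotypes did not overlap. The mean rose from 11.4 ± 0.757 to 18.1 ± 2.13 CPM (SD, n = 2 each), for a log2 fold change of 0.67 (SE 0.139, 95% interval 0.37 to 0.97, adjusted p = 0.0063 in edgeR). With the table's lengths the gene was the second-lowest of the 49 in WT, at 2.39 CPM per kb, against 3.80 CPM per kb in the knockout. Its paralogs Smarcd1 (253 and 267 CPM in WT against 264 and 237 CPM in the knockout) and Smarcd2 (85.9 and 85.5 CPM in WT against 84.4 and 84.5 CPM in the knockout) did not pass the test. Smarcd3 shares 913 exonic bases with Chpf2 on the opposite strand, and whether counting used the strand is not stated. Chpf2 was at 12.8 and 12.4 CPM in WT against 13.3 and 17.7 CPM in the knockout (log2 fold change 0.30, adjusted p = 0.272 in edgeR), and its part in the Smarcd3 counts was not tested.

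Chd3 (Entrez gene 216848, chromosome 11, 69343273 to 69369499) is an alternative motor of NuRD. Its counts were 588 and 583 in WT against 480 and 378 in the knockout, or 43.2 and 38.0 CPM against 30.6 and 24.6 CPM. The mean fell from 40.6 ± 3.65 to 27.6 ± 4.24 CPM (SD, n = 2 each), and each knockout library lay below each WT library. The log2 fold change was -0.56 (SE 0.124, 95% interval -0.82 to -0.29, adjusted p = 0.00969 in edgeR). Without WT replicate 1 the change was -0.46 and did not pass (adjusted p = 0.0687 in edgeR).

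**Figure D3:**
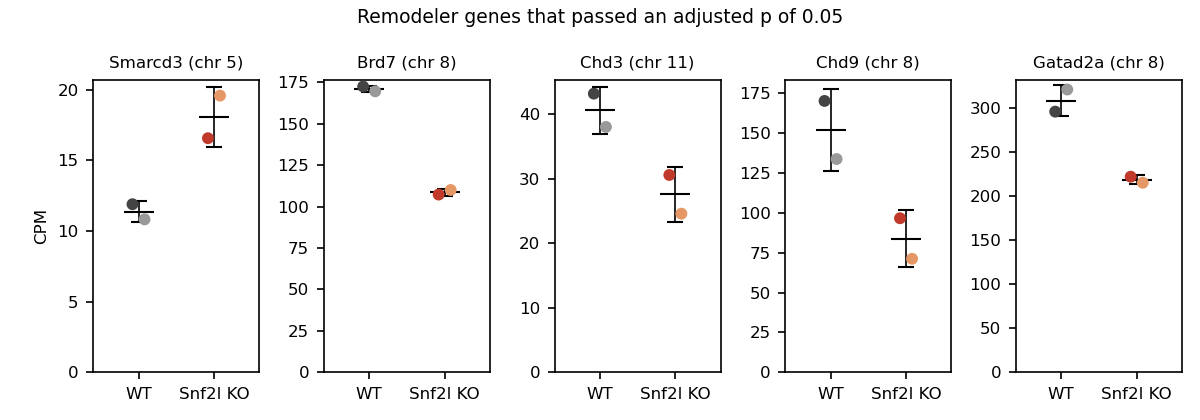
CPM of the 5 remodeler genes that passed an adjusted p-value of 0.05, each on its own linear axis from 0, with a point for each library and the mean ± SD of the 2 libraries of each genotype as bars. Smarcd3 is higher in both knockout libraries (16.6 and 19.6 CPM against 11.9 and 10.8 CPM), and Brd7, Chd3, Chd9 and Gatad2a are lower in both.

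The remaining calls, Brd7, Chd9 and Gatad2a, were the members on chromosome 8. Brd7 (Entrez gene 26992, chromosome 8, 88329894 to 88362252) codes for a bromodomain subunit of PBAF. It held 2346 and 2597 counts in WT against 1682 and 1690 counts in the knockout, and its level fell from 171 ± 2.05 to 109 ± 1.96 CPM (SD, n = 2 each). Its log2 fold change was -0.65 (SE 0.0879, adjusted p = 0.000296 in edgeR). Chd9 (Entrez gene 109151, chromosome 8, 90828302 to 91054516), a CHD motor gene, held 2313 and 2047 counts in WT against 1514 and 1093 counts in the knockout. Its level fell from 152 ± 25.7 to 83.8 ± 17.9 CPM (SD, n = 2 each), which is the largest change of the 49, with a log2 fold change of -0.86 (SE 0.137, adjusted p = 0.00103 in edgeR). Gatad2a (Entrez gene 234366, chromosome 8, 69907069 to 69996402), whose protein p66-alpha bridges the MBD and CHD4 modules of NuRD, held 4030 and 4922 counts in WT against 3486 and 3309 counts in the knockout. Its level fell from 309 ± 17.7 to 219 ± 4.85 CPM (SD, n = 2 each), for a log2 fold change of -0.50 (SE 0.0871, adjusted p = 0.00195 in edgeR). The genotypes did not overlap for any of the 3 genes.

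Chromosome 8 as a whole was lower in the knockout, and these genes were set beside it. All 3 members there passed as lower, as did 60.1% of the 754 tested genes of that chromosome. Elsewhere 1 of 46 members rose and 1 fell, against 4.17% and 2.05% of tested genes off chromosome 8. The middle 50% of chromosome 8 genes had log2 fold changes between -0.63 and -0.35. Among them Gatad2a stood at the 51.2 percentile, Brd7 at 21.1 and Chd9 at 5.57. With the chromosome's shift of -0.52 removed, Brd7 was at -0.14 (adjusted p = 0.440 in edgeR), Chd9 at -0.34 (adjusted p = 0.192 in edgeR) and Gatad2a at 0.022 (adjusted p = 0.923 in edgeR), and none of these passed. Smarca5 lies on the same chromosome and was at -0.12 after the same step (adjusted p = 0.504 in edgeR). Smarcd3 and Chd3 still passed, with adjusted p-values of 0.0119 and 0.0180 in edgeR.

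**Figure D4:**
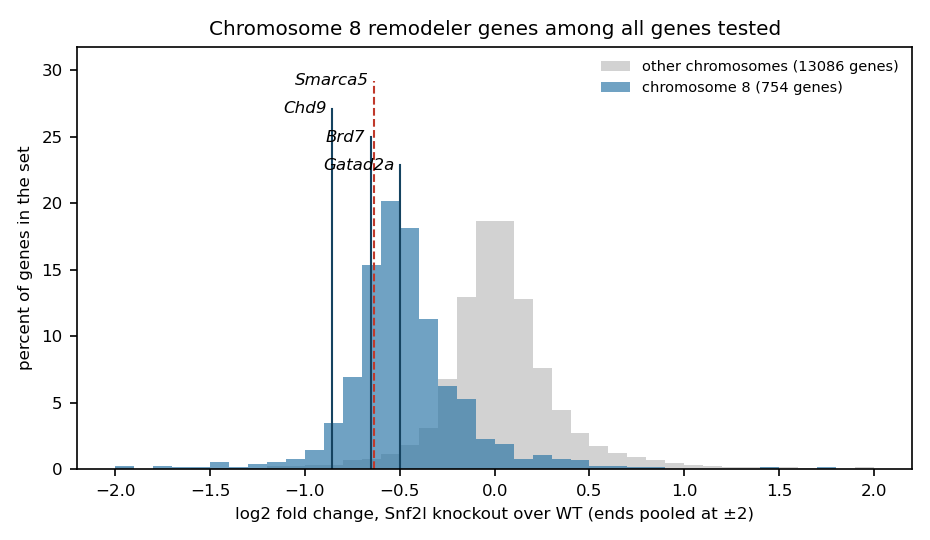
Distribution of log2 fold changes, Snf2l knockout over WT, for the 754 tested genes on chromosome 8 and the 13086 on other chromosomes, as percent of genes in each set. Lines mark Brd7, Chd9, Gatad2a and, dashed, Smarca5, which lie within or to the left of the bulk of chromosome 8 genes, whose middle 50% runs from -0.63 to -0.35.

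Replicates of these genes differed with gene length. The members are long, with a median of 7204 bp against 4181.5 bp for all genes tested, and 19 of them (38.8%, against 14.9% of all genes) exceed 8000 bp. In WT, 17 of these 19 were lower in replicate 2 than in replicate 1, with a median log2 difference of -0.24, and the same count and a median of -0.29 were found in the knockout. All tested genes over 8000 bp had medians of -0.13 and -0.18. The 9 members with calls after removal of the length trend were the 5 above plus Pbrm1, Smarcc2, Mta1 and Mta3, whereas 13.9% of all genes passed in that fit. Chd3 is 8443 bp and Chd9 15989 bp long, and both passed with the trend removed.

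**Figure D5:**
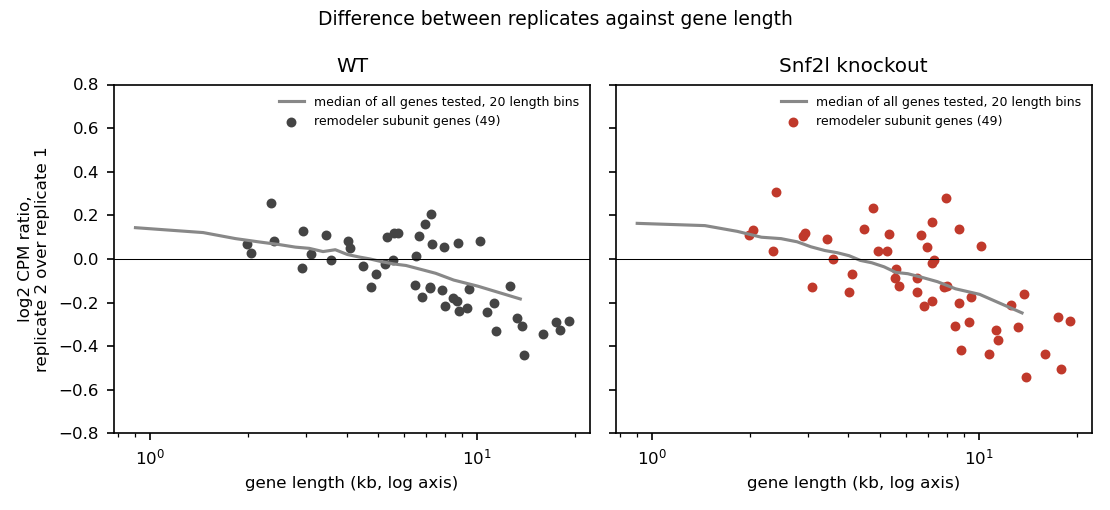
Log2 ratio of CPM between replicate 2 and replicate 1 against gene length (log axis, kb) in WT (left) and in the Snf2l knockout (right), with a point for each of the 49 remodeler genes and a line for the median of all tested genes in 20 bins of length. In both genotypes 17 of the 19 members over 8000 bp lie below 0, on the same side as the line.

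The remaining genes of these families were examined in a list of 53, comprising further subunits of SWI/SNF, NuRD, INO80 and the SRCAP and TIP60-EP400 complexes, partners of the other ATPases and further SNF2-type motors. Of these, 52 were tested, 1 rose and 2 fell (5.77% in all, against 9.21% of all genes). An unadjusted p-value under 0.05 in edgeR was found for 6, against 22.2% of all genes. Mbd2, the gene of a methyl-CpG-binding protein that replaces MBD3 in NuRD, held 127 and 143 counts in WT against 242 and 208 in the knockout. Its level rose from 9.33 to 14.5 CPM, a log2 fold change of 0.63 (SE 0.142, adjusted p = 0.009997 in edgeR). Mbd3 itself was at 169 and 178 CPM in WT against 188 and 203 CPM in the knockout and did not pass. Epc1, a scaffold gene of the TIP60 complex, held 619 and 706 counts in WT against 581 and 465 in the knockout, with a log2 fold change of -0.44 (SE 0.114, adjusted p = 0.0232 in edgeR). Hltf, the gene of an SNF2-type ATPase of replication fork repair, held 1359 and 1434 counts in WT against 1161 and 1133 in the knockout, with a log2 fold change of -0.39 (SE 0.0925, adjusted p = 0.0147 in edgeR). Epc1 did not pass without WT replicate 1, WT replicate 2 or Snf2l knockout replicate 2 (adjusted p of 0.0693, 0.0867 and 0.129 in edgeR), nor did Hltf without WT replicate 1 or 2 (0.213 and 0.058). Without WT replicate 2 only Mbd2 passed, and 10 genes passed without Snf2l knockout replicate 1. The subunits of the INO80 complex numbered 13, of which none passed in edgeR or DESeq2 and 1 had an unadjusted p-value under 0.05, while Ino80d passed without WT replicate 1 or without Snf2l knockout replicate 2, and Ruvbl2 and Tfpt passed without Snf2l knockout replicate 1.

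Marker genes of the labelled cell type were all present, with 8 ESC markers summing to 4296 and 4488 CPM in WT and to 4583 and 4568 CPM in the knockout. Of these 8, 1 rose and 1 fell at an adjusted p-value under 0.05 in edgeR, with log2 fold changes from -0.60 to 0.34 over the list. The 7 fibroblast markers, of the kind feeder cells carry, summed to 13.4 and 11.3 CPM in WT and to 24.98 and 25.8 CPM in the knockout, with Lum at 0 throughout and 3 of the 7 under 1 CPM in every library. The 5 primitive endoderm markers summed to 8.96 and 7.44 CPM in WT and to 14.7 and 15.7 CPM in the knockout. By the same threshold 3 of these 5 rose, as did 2 of the 5 fibroblast markers tested. The 5 neural markers summed to 220 and 240 CPM in WT and to 149 and 157 CPM in the knockout, mostly through Tubb3, a chromosome 8 gene (log2 fold change -0.61, and -0.09 with the shift of that chromosome removed). Of the others, Nes, Pax6 and the chromosome 8 gene Sox1 fell and Neurod1 rose (log2 fold change 0.93). The part of these markers in the changes of Smarcd3 and Mbd2, which were low in WT, was not tested.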

How the data were processed

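Poly(A) RNA-seq of 2 WT and 2 Snf2l knockout ESC libraries was analysed. The authors deposited whole-number read counts per Entrez gene, not normalized, with a length in bp. They had demultiplexed reads with bcl2fastq 2.17 and aligned them to mm10 with HISAT2 through QuasR, and had counted them over UCSC Known Genes. The labels name a stranded library kit and the methods an unstranded one, and the strand setting of the counting is not given in the sources used here, so overlapping genes cannot be separated.

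Of 24594 genes, 24570 were matched to RefSeq symbols. Counts were tested in R 4.3.3 with edgeR 4.0.16 (filterByExpr with a minimum count of 10, TMM factors, legacy quasi-likelihood test, genotype as the only term, two-sided), with Benjamini-Hochberg adjustment over 13840 genes. TMM was chosen because the methods name no normalization. Intervals of 95% come from the quasi-likelihood SE. CPM used TMM-scaled library sizes, and the common biological coefficient of variation was 7.45%. On simulated data (200 of 13816 genes changed), 100% of genes changed by 1.5 on the log2 scale and 97% of those changed by 0.7 were recovered, with 6 false calls; with none changed, 0 were called.

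The members and lists were chosen with earlier results of these data known. Members that passed were named in full, with the 3 largest positive and 3 largest negative changes among the others, passing genes of the further lists, Smarca1 and Smarca5. Alternatives were other scalings, filters and thresholds, DESeq2 1.42.0, other edgeR settings, a replicate block, each library left out, and removal of the chromosome 8 shift or, added after seeing the data, of the length trend.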

Additional observations from a re-analysis of the deposited data

How the results depend on the processing

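With RLE, upper-quartile or library-size scaling, either other filter, DESeq2, the edgeR 4 fit, robust estimation or an adjusted p-value under 0.01, 5 members passed, and in each of the fits the genes were those named. Leaving out 1 library gave between 4 and 11 members, between 0 and 1 DEGs and between 1 and 10 of the further remodeler genes, with the lone library of that genotype assumed to vary like the other pair. The chromosome 8 shift removed left 2 members (4.79% of all genes). It put Gatad2a at 0.022 and Asf1b at 0.00026, and neither passed (adjusted p of 0.923 and 0.999 in edgeR). The length trend removed gave 9 members (13.9% of all genes) and 6 further genes. With the replicate number as a block 17 members (25.1% of all genes) and 12 further genes passed. Block and length trend together gave 18 members (24.6% of all genes) and 9 further genes. Across tested genes, the replicate 1 libraries of both genotypes deviated together from their genotype means (correlation 0.293), and replicate 2 mirrors this by construction. However, the labels name no shared culture or day, so that the pairing is not established. The causes of these moves were not tested, except that fewer libraries or a removed shift are the alternatives' own construction. Over 17 named genes, 240 of 272 alternative values kept their direction and side of the threshold, 10 no longer passed and 20 newly passed. The other 2 were those of Gatad2a and Asf1b given above, which changed sign and did not pass. Without length, 7 of the 10 most abundant members remained among the top 10, with the longest coding transcript 8, and 23 of 25 WT ratios moved by over 1 SD under either choice. With 2 libraries a genotype, the SE limits what can be seen, most for Smarca2, which had 127 counts in all.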

Other observations

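Genes of the substrates and partners of remodelers, 5 variant histones and 15 histone chaperones, were also read. All 20 were tested, 0 rose and 1 fell in edgeR (9.21% of all genes passed in either direction). An unadjusted p-value under 0.05 in edgeR was found for 3 of them, against 22.2% of all genes. The gene that fell was Asf1b, a chaperone of histones H3 and H4 in dividing cells, which lies on chromosome 8. It held 968 and 1134 counts in WT against 792 and 781 in the knockout, and its level fell from 72.5 ± 2.03 to 50.6 ± 0.241 CPM (SD, n = 2 each), for a log2 fold change of -0.52 (SE 0.0947, adjusted p = 0.0026 in edgeR). With the chromosome 8 shift removed its log2 fold change was 0.00026 (adjusted p = 0.999 in edgeR). Its paralog Asf1a, on chromosome 10, was at 79.6 and 82.1 CPM in WT against 75.2 and 82.1 CPM in the knockout. The H2A.Z genes H2az1 (226 and 247 CPM in WT against 213 and 225 CPM in the knockout) and H2az2 (76.1 and 85.01 CPM in WT against 85.3 and 93.1 CPM in the knockout) did not pass, nor did H3f3b (341 and 354 CPM in WT against 324 and 341 CPM in the knockout). The values of Asf1a, H2az1, H2az2 and H3f3b were chosen for display after they had been seen.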
